A study of Mus musculus with 4 samples.

Results

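GABA neurons, the inhibitory neurons of the hypothalamus, made up 15042 of the 56386 nuclei that the authors annotated in a single-nucleus RNA sequencing experiment on the mouse hypothalamus. Their members were all nuclei of the main neuronal cluster, Neurons_1, whose deposited sub-cluster name ends with GABA Neurons. This sub-cluster was the most populous of the 14 neuronal sub-clusters and held 15042 of 35756 Neurons_1 nuclei. Tissue came from adult male mice on the C57/BL6NCr background. Wild-type mice were compared with TRα1+m mice, which carry a heterozygous R384C exchange in the thyroid hormone receptor TRα1 in every tissue, so that no cell type was targeted. The R384C receptor binds thyroid hormone with lower affinity. The 4 libraries comprised 1 library of each genotype from each of 2 experimental repeats, and each library held nuclei pooled from 3 mice of its genotype. The unit of replication was therefore the pool, with n = 2 per genotype, and an exact two-sided permutation test over libraries could not give a p below 0.3333.

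GABA neurons of wild-type repeats 1 and 2 numbered 4107 and 3251, and those of TRα1+m repeats 1 and 2 numbered 4781 and 2903. They held 17573713, 17995133, 18754475 and 14554413 unique molecular identifiers (UMIs, single transcripts after removal of PCR copies) in the same order. The median nucleus held 3873 and 5117 UMIs in wild-type and 3564 and 4674 in TRα1+m, so that in both genotypes repeat 2 was the deeper library. The number of genes detected per nucleus followed the same order, with medians of 2108 and 2639 in wild-type and 2027 and 2513 in TRα1+m. Levels are given below as CPM, the UMIs of a gene scaled to the same total of UMIs in the GABA nuclei of each library. Between 1 and 9 nucleus barcodes were shared by any 2 libraries among the GABA neurons.

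GABA is made from glutamate by the decarboxylases GAD67 and GAD65, the products of Gad1 and Gad2, and is loaded into synaptic vesicles by the transporter VGAT, the product of Slc32a1. It opens chloride channels, the GABA-A receptors, and acts through the metabotropic GABA-B receptors. In the hypothalamus, neurons that release GABA often release a neuropeptide as well, and they serve feeding, temperature control, sleep and reproduction. Transcription factors of the Dlx family direct their formation, and thyroid hormone is known to act on the maturation of inhibitory neurons.

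All 3 marker genes were detected in every library. Gad2 (chromosome 2, 22622205 to 22693874, plus strand, GRCm38) was at 275 and 271 CPM in wild-type repeats 1 and 2 and at 252 and 265 in TRα1+m repeats 1 and 2. Its mean in the 3 glutamatergic sub-clusters was 47.6 ± 7.19 and in oligodendrocytes 91.3 ± 7.30 (SD, n = 4 libraries). Gad2 thus stood well above both in all 4 libraries, and its mean was the highest among the 14 neuronal sub-clusters.

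Gad1 (chromosome 2, 70553072 to 70602014, plus strand) was at 91.0 and 133 CPM in wild-type and at 87.9 and 131 in TRα1+m. It averaged 29.4 ± 4.10 in glutamatergic neurons and 73.8 ± 11.1 in oligodendrocytes, so the repeat 1 libraries lay close to the level in a cell type that should lack the gene. Its mean of 111 in GABA neurons was also below its means of 160 in the arginine vasopressin and 187 in the orexin sub-cluster. Slc32a1 (chromosome 2, 158610767 to 158615748, plus strand) was at 71.4 and 71.1 in the wild-type and TRα1+m libraries of repeat 1 and at 230 and 223 in those of repeat 2. The repeat and not the genotype separated these values. The glutamate transporter VGLUT2, Slc17a6 (chromosome 7, 51622006 to 51671119, plus strand), was at 49.2 and 61.7 in wild-type and at 49.3 and 44.4 in TRα1+m, against 242 ± 59.1 in glutamatergic neurons and 70.0 ± 20.2 in oligodendrocytes. Its level in GABA neurons was thus below the oligodendrocyte mean, although in the TRα1+m library of repeat 2 the oligodendrocytes were at 43.2.

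**Figure D1:**
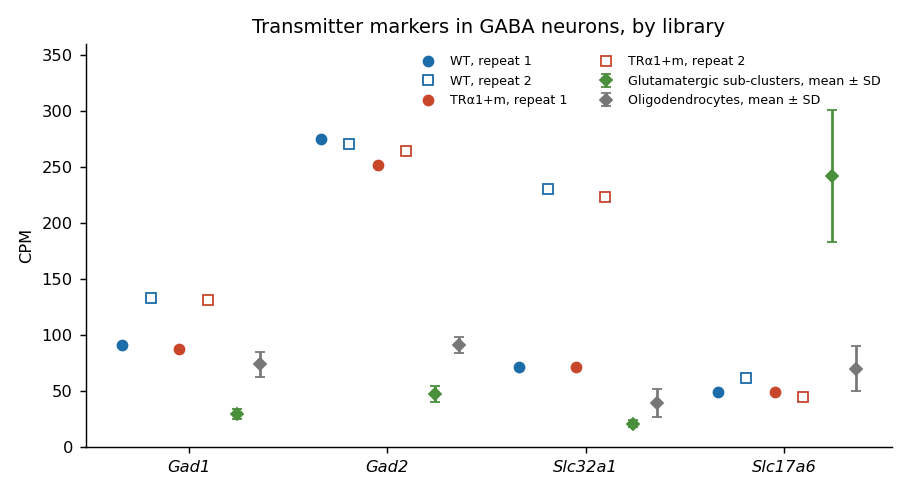
Levels (CPM) of Gad1, Gad2, Slc32a1 and Slc17a6 in GABA neurons of each library, with the mean and SD over 4 libraries in the glutamatergic sub-clusters and in oligodendrocytes. Gad2 lay between 252 and 275 in all 4 libraries, while Slc32a1 was near 71 in repeat 1 and above 220 in repeat 2.

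In single nuclei, 67.7 ± 6.72% (SD, n = 4 libraries) held at least 1 UMI of Gad1, Gad2 or Slc32a1 and none of the vesicular glutamate transporters Slc17a6, Slc17a7 and Slc17a8. A further 11.8 ± 3.02% held both kinds of transcript, 5.31 ± 0.277% only a glutamate transporter and 15.2 ± 7.75% neither. Free RNA in the suspension also gives UMIs in cells that do not express a gene, and oligodendrocytes, with a median of 1605 UMIs against 4180 in GABA neurons, served as a comparison. Whether free RNA makes up the same part of both cell types at equal depth was not tested. After every nucleus was thinned to 1000 UMIs, nuclei with a GABA marker alone made up 37.7 ± 5.84% of GABA neurons, 7.24 ± 0.643% of glutamatergic neurons and 17.6 ± 0.707% of oligodendrocytes. Nuclei with both kinds of transcript made up 1.34% of GABA neurons and 1.36% of oligodendrocytes at that depth, so that their share was not above that in oligodendrocytes. Thinning left out 10 GABA nuclei, 2 glutamatergic nuclei and 162 oligodendrocytes.

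Markers of other cell types were present at low levels. All 6 oligodendrocyte markers were detected in every library, summing to 489 and 433 CPM in wild-type and 532 and 388 in TRα1+m, with Mbp the most abundant, against 15980 in oligodendrocytes. The 6 astrocyte and tanycyte markers summed to 281, 226, 379 and 174 in the same order, with Slc1a2 the most abundant, and the 5 microglia markers to 58.1, 56.9, 68.5 and 60.7. The 5 endothelial and mural markers summed to 11.4, 12.3, 20.0 and 11.5. Of the 4 pituitary markers Gh and Prl were without a UMI in 3 of 4 libraries. The oligodendrocyte and astrocyte sums were highest in the TRα1+m library of repeat 1 and lowest in that of repeat 2.

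The clustering used these nuclei, so differences between GABA and glutamatergic neurons are given as a description without a test. Of genes with at least 50 CPM in GABA neurons of every library, Dlx6os1, an antisense transcript of the Dlx5 and Dlx6 locus, had the highest ratio, with 75.7 ± 10.4 CPM in GABA against 4.07 ± 1.05 in glutamatergic neurons, or 18.6-fold. Slc32a1 followed at 7.14-fold and Gad2 at 5.58-fold. Gal, the peptide galanin, was 5.47-fold and Ecel1, a neuronal endopeptidase, 4.87-fold. The homeodomain factor Meis2 was 4.44-fold and Gad1 3.77-fold. Nrxn3, a presynaptic adhesion protein, was at 7841 and 7135 CPM in wild-type and 7581 and 6377 in TRα1+m, against 1659 ± 313 in glutamatergic neurons. The ratio of each of the 20 genes of this ranking was above 1 in all 4 libraries, and that of Gal ranged widest in relation to its mean, from 2.29 to 8.91.

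**Figure D2:**
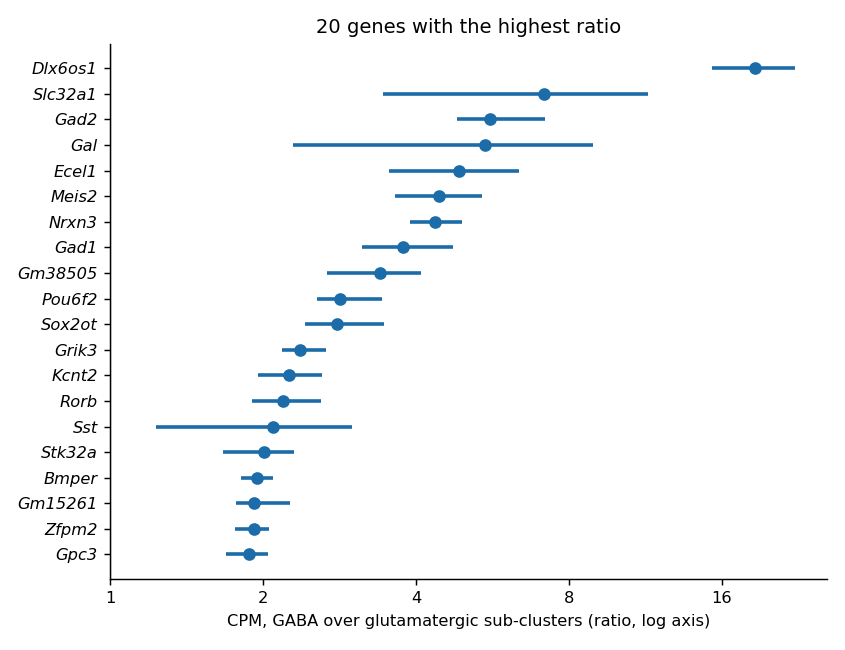
Ratio of the level in GABA neurons to that in the glutamatergic sub-clusters (log axis) for the 20 genes with the highest ratio, points for the ratio of the means and lines for the lowest and highest library. Dlx6os1 stood apart at 18.6-fold, and the markers Slc32a1, Gad2 and Gad1 were among the first 8 genes.

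Among the 22 factors of the GABA lineage list, Isl1 was at 43.0, 52.5, 49.6 and 54.9 CPM in wild-type repeats 1 and 2 and TRα1+m repeats 1 and 2, against a mean of 10.1 in glutamatergic neurons. Dlx1 was at 11.8, 14.4, 12.3 and 17.3 against 3.13. Zfhx3, a factor of the suprachiasmatic nucleus, was at 825, 612, 748 and 593 and did not set the classes apart, with a mean of 648 in glutamatergic neurons. Nkx2-1, of the ventral hypothalamus, averaged 7.66 in GABA and 12.8 in glutamatergic neurons. The 12 glutamatergic lineage factors summed to between 24.6 and 32.5 in the GABA libraries and to a mean of 183 in glutamatergic neurons. Sim1, the factor of the paraventricular nucleus, was at 6.71, 5.83, 8.85 and 4.33 in GABA and at 94.3 in glutamatergic neurons, and Lmx1a, of the posterior hypothalamus, averaged 33.7 in glutamatergic neurons and lay between 1.02 and 1.28 in GABA neurons.

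The summed level of the GABA-A receptor subunits, in contrast to that of the genes that make GABA, was similar in both classes. The sum, in which Gabrb1 was the most abundant, does not give the level of each subunit. The 15 GABA-A receptor subunits summed to 5547 and 5712 CPM in wild-type and 5458 and 5193 in TRα1+m, and to a mean of 5395 in glutamatergic neurons. The chloride exporter KCC2, Slc12a5, was at 207, 245, 201 and 202 against 205. The calcium channel subunit Cacna2d1 showed the opposite pattern to Nrxn3, with 308, 320, 301 and 292 in GABA and 1492 in glutamatergic neurons. Its relative Cacna2d3 was at 608, 614, 578 and 551 in GABA against 334 in glutamatergic neurons.

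GABA neurons differed among themselves in the peptides, receptors and factors they contained. A nucleus was counted as positive for a gene if it held at least 2 UMIs, and 28 genes were examined. Of the 15042 nuclei, 7583 (50.4%) were positive for none of the 28, 4763 for a single gene and 2696 for more than that. Gal was found in 1750 nuclei (11.6%), the peptide somatostatin, Sst, in 1221 (8.12%), Meis2 in 1149 (7.64%), the tachykinin gene Tac1 in 1112 (7.39%), the calcium-binding protein calbindin, Calb1, in 943 (6.27%) and the CART peptide gene, Cartpt, in 921 (6.12%). The oestrogen receptor Esr1 was found in 738 nuclei (4.91%), neurotensin, Nts, in 593 (3.94%), Isl1 in 574 (3.82%) and prepronociceptin, Pnoc, in 455 (3.02%).

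Several of these shares depended on the repeat. Gal nuclei made up 8.47% (95% interval 7.64 to 9.37%) of GABA neurons in the wild-type and 6.71% in the TRα1+m library of repeat 1, and 18.6% (17.3 to 20.0%) and 16.4% in those of repeat 2. Intervals are exact (Clopper-Pearson) and cover counting error only. Pnoc nuclei made up 1.29% and 0.837% in repeat 1 and 6.92% and 4.72% in repeat 2. The repeat 2 values were above the repeat 1 values in both genotypes for each of these genes. Meis2 went the other way, with 7.82% and 10.7% in repeat 1 and 4.15% and 6.20% in repeat 2.

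Read at 1000 UMIs per nucleus, Gal was present at 2 or more UMIs in 4.77% of GABA neurons, 0.395% of glutamatergic neurons and 0.442% of oligodendrocytes. Meis2 was at 2.39%, 0.420% and 0.444% and Nts at 0.997%, 0.360% and 0.130% in the same order. Sst, at 2.92%, 1.66% and 1.36%, stood less far above its share in oligodendrocytes. Calb1 and Calb2, at 0.450% and 0.174% of GABA neurons, were below their shares of 0.772% and 0.679% in oligodendrocytes. The part of free RNA in them was not tested. Oxytocin, vasopressin, orexin and melanin-concentrating hormone (Oxt, Avp, Hcrt and Pmch) belong to other neuron types, and at that depth 13.6% of GABA neurons and 26.4% of oligodendrocytes held an Oxt UMI and 13.9% and 28.6% an Avp UMI, so that neither share was above that in oligodendrocytes.

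Some positive nuclei shared a second gene. Nuclei with corticotropin-releasing hormone, Crh, numbered 55, and 33 of them were also positive for Nts, against 3.94% of all GABA neurons. Of 165 nuclei with growth hormone-releasing hormone, Ghrh, 123 (74.5%) were positive for Gal and 70 (42.4%) for Esr1. The leptin receptor, Lepr, was found in 177 nuclei, and 97 of these (54.8%) were positive for Cartpt. Neuropeptide Y, Npy, was found in 156 nuclei, of which 61 (39.1%) were positive for Sst. At 1000 UMIs the Npy share was 0.205% in GABA neurons, 0.0749% in glutamatergic neurons and 0.250% in oligodendrocytes. In GABA neurons it was thus above the share in glutamatergic neurons but not above that in oligodendrocytes. Of 1149 Meis2 nuclei, 219 (19.1%) were positive for Sst against 8.12% of all GABA neurons and 110 (9.57%) for Tac1 against 7.39%. Of the other peptides, 68 (5.92%) were positive for Gal against 11.6%, 27 (2.35%) for Cartpt against 6.12% and 7 (0.609%) for enkephalin, Penk, against 2.13%, whereas Pnoc was at 38 (3.31%) against 3.02%. These overlaps are pooled over libraries. Meis2 nuclei were more frequent in repeat 1, and Gal, Cartpt and Pnoc nuclei in repeat 2. A lower or similar pooled share therefore need not hold within a repeat, which was not tested.

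In Crh nuclei, which numbered 5 and 29 in wild-type and 3 and 18 in TRα1+m, Nts was at 1111 and 2529 CPM in wild-type and at 1207 and 2340 in TRα1+m, and the ratio to the other GABA nuclei ranged from 21.8 to 37.5 over the 4 libraries. In Gal nuclei Ghrh was at 73.4 and 106 in wild-type and 70.3 and 122 in TRα1+m, between 6.66 and 40.8 times the level outside. In Ghrh nuclei Esr1 was at 568 and 388 in wild-type and 254 and 368 in TRα1+m. The nuclei of a library are not replicates, and positive nuclei were deeper (median 6726 UMIs for Crh and 4763 for Gal) than all GABA nuclei (4180), and the part of depth in these overlaps was not tested.

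**Figure D3:**
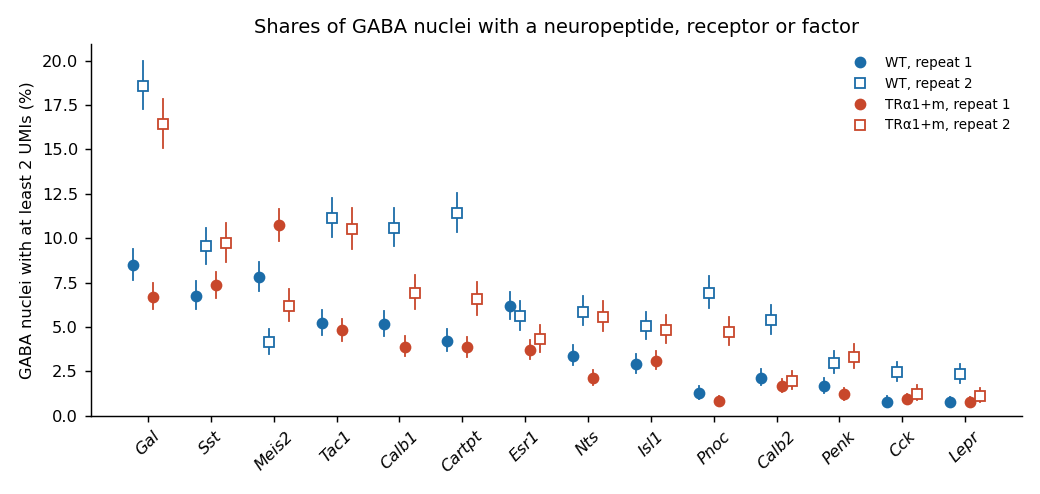
Share of GABA nuclei with at least 2 UMIs (%) for the 14 most frequent of 28 genes, points for libraries and lines for exact 95% intervals. Gal, Tac1, Cartpt and Pnoc were more frequent in both repeat 2 libraries, Meis2 was more frequent in TRα1+m within each repeat, and the Esr1 shares of the genotypes did not overlap.

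The first question between genotypes was whether the mutation altered the number of GABA neurons. GABA neurons made up 42.9% (41.9 to 43.9%) and 37.2% (36.1 to 38.2%) of Neurons_1 nuclei in wild-type repeats 1 and 2, and 45.02% (44.1 to 46.0%) and 42.5% (41.4 to 43.7%) in TRα1+m repeats 1 and 2. Within each repeat the share was higher in TRα1+m. The lowest share was a wild-type and the highest a TRα1+m library, but the wild-type library of repeat 1 lay above the TRα1+m library of repeat 2. Nuclei of the GABA sub-cluster with a GABA marker and no glutamate transporter made up 27.1% and 26.3% of Neurons_1 in wild-type and 27.6% and 32.2% in TRα1+m, which did not overlap (exact permutation p = 0.3333, the smallest possible). Nuclei of other sub-clusters with such transcripts were not counted. Over all GABA neurons, means were 40.1 ± 4.09% and 43.8 ± 1.76% (SD, n = 2), and the exact permutation test gave p = 0.667. In the fit of edgeR, which models counts with a spread between libraries, to the numbers of nuclei in the 14 sub-clusters, the log2 fold change was 0.13 (SE 0.36, adjusted p = 0.990), and 0.02 when all annotated nuclei were the total. With a library left out it lay between 0.028 and 0.24. A difference in the number of GABA neurons was not detectable at this number of libraries.

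Of the 28 genes, 5 had shares of positive nuclei that did not overlap between genotypes: Esr1, Lhx6, Th, Calb2 and Pvalb, all lower in TRα1+m. By level, 6.35% of all 17552 genes tested lay lower without overlap and 22.6% did not overlap in either direction. Esr1 nuclei made up 6.18% and 5.60% of GABA neurons in wild-type and 3.70% and 4.31% in TRα1+m. Th, the enzyme tyrosine hydroxylase, was at 0.341% and 0.523% in wild-type and 0.314% and 0.172% in TRα1+m, and the interneuron factor Lhx6 was found in no more than 5 nuclei of any library. The exact p was 0.3333 for each, the smallest possible, and 1.00 after adjustment over the 28 genes. Esr1, Calb2 and Pvalb also did not overlap after thinning to 2000 UMIs, whereas Lhx6 and Th did. Pvalb rested on few nuclei, 8 and 7 in wild-type and 3 and 1 in TRα1+m, and no nucleus held 3 or more of its UMIs. Its thinned shares were 0.102% and 0.0313% in wild-type and 0.0223% and 0% in TRα1+m. At 1000 UMIs Calb2 was at 0.174% of GABA neurons and 0.679% of oligodendrocytes, and the part of free RNA in its share was not tested. Pvalb was at 0.0069% of GABA neurons, 0.0023% of glutamatergic neurons and 0.0065% of oligodendrocytes at 1000 UMIs. In oligodendrocytes Pvalb was at 10.4 and 18.4 CPM in wild-type and 5.17 and 3.56 in TRα1+m. In astrocytes it was at 10.1 and 13.0 in wild-type and 6.46 and 3.64 in TRα1+m, and the part of free RNA in its GABA values was not tested.

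The second question was which genes differed in level. Summed over the GABA neurons of each library, 17552 genes passed the filter on low counts. No gene passed an adjusted p of 0.05 in edgeR's quasi-likelihood test with Benjamini-Hochberg adjustment, so 0% were called, and DESeq2 called none either. At an unadjusted p of 0.05, 127 genes (41 or 0.234% higher and 86 or 0.490% lower in TRα1+m) passed in edgeR and 47 in DESeq2. Over all genes the log2 fold change had a median of 0.01. The transmitter markers gave log2 fold changes of -0.13 (SE 0.10) for Gad2, -0.09 (SE 0.26) for Gad1, -0.10 (SE 0.72) for Slc32a1 and -0.30 (SE 0.17) for Slc17a6.

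The study processed both genotypes in each repeat, and the spread in that test includes the difference between repeats. With the repeat as a block, 120 of 17552 genes (0.684%) passed in edgeR, 16 higher (0.0912%) and 104 lower (0.593%) in TRα1+m. That fit leaves 1 residual degree of freedom per gene and takes its spread mainly from other genes. DESeq2 with the same block called 2 genes, and so did edgeR with the block when only nuclei with a GABA marker and no glutamate transporter were summed: AC149090.1 and Oxt in both cases. When each library contributed 2903 nuclei, 17 of the 120 passed. The genes called lower changed little, with a median log2 fold change of -0.38 and 77 of 104 within 0.5 of 0. Of the 2024 genes with at least 100 CPM, 57 (2.82%) passed, 54 of them (2.67%) lower, and the median of these abundant genes was -0.06. Of the 120 genes, 65 had a higher level in oligodendrocytes or astrocytes than in GABA neurons (7 of those higher and 58 of those lower), and the part of free RNA in their differences was not tested. The share of such genes among all genes tested is not given, so this count is a description only.

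AC149090.1, a protein-coding gene annotated on the unplaced scaffold JH584304.1, had the largest log2 fold change of the 10 higher genes of smallest p with at least 10 CPM. It was at 466 and 243 CPM in wild-type and at 962 and 607 in TRα1+m. Both TRα1+m libraries lay above both wild-type libraries, and the log2 fold change was 1.09 (SE 0.39, unadjusted p = 0.0400, adjusted p = 1.00 in edgeR) and 1.13 (SE 0.06, adjusted p = 1.39e-14) with the block. With a library left out it ranged from 0.68 to 1.66 without the block. The study's rank sum test, which takes nuclei as replicates although they are not, called AC149090.1 and Oxt and is not evidence on the genotypes. The gene was not particular to GABA neurons, since it was at 501 and 285 in wild-type and 1068 and 590 in TRα1+m glutamatergic neurons, and at 149, 114, 278 and 163 in oligodendrocytes. Whether reads from near-identical copies were assigned to it is not known.

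Oxt was at 511 and 53.3 CPM in wild-type and 222 and 25.4 in TRα1+m. The repeats differed more than the genotypes, and the log2 fold change of -1.24 had an SE of 1.35, but -1.20 (SE 0.07, adjusted p = 1.94e-17 in edgeR) with the block. In oligodendrocytes Oxt was at 737 and 185 in wild-type and 513 and 91.5 in TRα1+m, lower in TRα1+m within each repeat as well. The log2 differences in repeats 1 and 2 were -1.25 and -1.13 in GABA neurons, -0.52 and -1.02 in oligodendrocytes and -0.52 and -0.86 in glutamatergic neurons, and the part of free RNA in them was not tested. With a library left out, the log2 fold change in GABA neurons without the block ranged from -3.57 to 1.19.

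Meis2 (chromosome 2, 115863064 to 116065839, minus strand) was at 108 and 58.0 CPM in wild-type and 157 and 95.4 in TRα1+m. It was higher in TRα1+m within each repeat, with log2 differences of 0.49 and 0.65, although the wild-type library of repeat 1 lay above the TRα1+m library of repeat 2. The log2 fold change was 0.55 (SE 0.40, unadjusted p = 0.223) and 0.57 (SE 0.08, adjusted p = 2.48e-05 in edgeR) with the block, and without the block it ranged from 0.11 to 1.09 with a library left out. Meis2 was also among the 17 genes called with equal numbers of nuclei. In glutamatergic neurons it was at 29.7 and 10.7 in wild-type and 30.0 and 23.7 in TRα1+m, and in oligodendrocytes at 39.0 and 32.8 in wild-type and 41.4 and 71.3 in TRα1+m, so that in repeat 2 it was higher in TRα1+m there too. In astrocytes it was at 87.7, 88.0, 92.2 and 102. It was the only 1 of 22 GABA lineage factors called with the block, against 0.0912% higher of all genes, and the list's median log2 fold change was 0.12 against 0.01 over all genes.

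Thyroid hormone genes came next in the design. Thra (chromosome 11, 98740638 to 98769006, plus strand), which encodes TRα1 itself, was at 104 and 112 CPM in wild-type and 78.8 and 86.5 in TRα1+m. The genotypes did not overlap, with log2 differences of -0.45 and -0.43 in repeats 1 and 2. The log2 fold change was -0.44 (SE 0.12, unadjusted p = 0.0136, adjusted p = 1.00) and passed with the block (SE 0.08, adjusted p = 0.00234 in edgeR). The counts do not read the R384C exchange, so the level was not used to check the genotype labels. In oligodendrocytes, where Thra was at 254 and 280 in wild-type and 200 and 217 in TRα1+m, and in glutamatergic neurons, with 93.9, 114, 78.9 and 84.1, it was lower in TRα1+m within each repeat too. Thrb, the gene of the receptor TRβ, was at 250 and 263 in wild-type and 243 and 244 in TRα1+m, with a log2 fold change of -0.13 (SE 0.10). Of the 13 receptor, transporter, deiodinase and cofactor genes tested, Thra was the only 1 called with the block, against 0.593% lower of all genes.

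Of 8 genes that are known to respond to thyroid hormone, 1 was called with the block, against 0.593% lower of all genes. Klf9, a transcription factor induced by the hormone, was at 37.7 and 36.9 CPM in wild-type and 29.4 and 25.3 in TRα1+m, with no overlap and a log2 fold change of -0.50 (SE 0.17, unadjusted p = 0.0313; with the block, adjusted p = 0.00867 in edgeR). In oligodendrocytes Klf9 was at 111 and 116 in wild-type and 75.02 and 76.03 in TRα1+m, in astrocytes at 231, 191, 180 and 188 in the same order, and in glutamatergic neurons at 35.5, 32.9, 26.9 and 25.2. It was thus more abundant in both glial types, and the part of their RNA in the GABA values was not tested. Hr, the corepressor hairless and a direct target of the receptors, was at 2.45 and 2.39 in wild-type and 1.33 and 1.44 in TRα1+m, with a log2 fold change of -0.86 (SE 0.30, unadjusted p = 0.0353; with the block, adjusted p = 0.305). Hr was at 49.5 and 43.8 in wild-type and 20.3 and 15.7 in TRα1+m astrocytes, and the part of astrocyte RNA in the GABA values was not tested. The target Rorb was at 313, 278, 323 and 206 and overlapped. Of the 8 genes, 3 lay lower and 1 higher without overlap, against 6.35% lower and 16.2% higher (22.6% together) over all genes tested, and their median log2 fold change was -0.31.

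Of 20 HCN and potassium channel genes 3 were called with the block, all lower, against 0.593% lower of all genes and 2.67% of those with at least 100 CPM. Without overlap 7 lay lower, against 6.35% of all genes and 252 of the 2024 genes with at least 100 CPM. Kcnd2, the Kv4.2 channel of the A-type current, was at 2571 and 2743 CPM in wild-type and 2350 and 2237 in TRα1+m (log2 fold change -0.27, SE 0.08, unadjusted p = 0.0230). Its accessory protein Kcnip4 was at 4574 and 4484 in wild-type and 4227 and 3886 in TRα1+m, and the SK channel Kcnn2 at 240 and 234 in wild-type and 203 in both TRα1+m libraries. The log2 fold change of Kcnip4 without the block ranged from -0.30 to -0.14 with a library left out. The list summed to 12118 and 12043 in wild-type and 11352 and 10671 in TRα1+m, and its median log2 fold change was -0.14. Kcnd2 was at 209 in oligodendrocytes and 3777 in astrocytes. None of 16 sodium and calcium channel genes was called with or without the block, and Cacna1d, with the smallest p of that list, was at 409 and 321 in wild-type and 289 and 301 in TRα1+m (unadjusted p = 0.0595).

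None of 33 receptors for hormones and peptides was called without the block, and 3 were called with it, all lower, against 0.593% lower of all genes. Without overlap 4 lay lower and 1 higher, against 6.35% lower and 16.2% higher of all genes. Esr1 and the prolactin receptor Prlr were among those called with the block. Esr1 was at 66.1 and 47.5 CPM in wild-type and 49.4 and 40.0 in TRα1+m, and Prlr at 142 and 106 in wild-type and 117 and 74.1 in TRα1+m. Each was lower in TRα1+m within both repeats, with log2 differences of -0.47 and -0.31 for Esr1 and -0.33 and -0.58 for Prlr, and each overlapped across repeats. With a library left out, the log2 fold changes without the block ranged from -0.64 to -0.12 for Esr1 and from -0.83 to -0.13 for Prlr. Their levels in oligodendrocytes were 6.08 and 23.1. The calcitonin receptor Calcr, outside the list and chosen after its values were seen, was also called with the block (adjusted p = 0.0429 in edgeR), and its values of 28.8 and 37.6 in wild-type and 22.5 and 28.6 in TRα1+m did not overlap. Its log2 fold change without the block ranged from -0.60 to -0.26 with a library left out. The median log2 fold change of the list was -0.08.

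Of 26 neuropeptide genes tested, Npy, whose share of nuclei was not above that in oligodendrocytes, was the only 1 with an unadjusted p under 0.05, with 17.6 and 19.7 CPM in wild-type and 27.4 and 25.7 in TRα1+m (log2 fold change 0.45, SE 0.17, unadjusted p = 0.0424; with the block, adjusted p = 0.0732 in edgeR). At an unadjusted p under 0.05 in edgeR, 0.234% of all genes were higher and 0.490% lower in TRα1+m. Nts, at 52.7 and 96.3 in wild-type and 38.1 and 81.7 in TRα1+m, was called lower with the block (adjusted p = 0.0159 in edgeR), as were Oxt and Avp, whose shares of nuclei were not above those in oligodendrocytes. These 3 of 26 genes stand against 0.593% lower of all genes. With a library left out, log2 fold changes without the block ranged from -0.9986 to 0.095 for Nts and from -1.42 to 0.50 for Avp. Gal was at 108 and 392 in wild-type and 99.7 and 364 in TRα1+m, and Sst at 105 and 391 in wild-type and 113 and 390 in TRα1+m, with log2 fold changes of -0.17 (SE 0.80) and -0.04 (SE 0.79).

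None of 7 GABA synthesis, packaging and uptake genes and none of 8 GABA-B receptor, scaffold and chloride transporter genes was called with the block, with median log2 fold changes of -0.10 and -0.07. Of the 14 GABA-A subunits tested, 1 was called lower with the block, against 0.593% lower of all genes. Their median log2 fold change was -0.10. Of 16 glutamate receptor genes Gria3 alone was called with the block, against 0.593% lower of all genes and 2.67% of those with at least 100 CPM. It was at 544 and 426 in wild-type and 468 and 375 in TRα1+m, and its log2 fold change without the block ranged from -0.46 to -0.053 with a library left out. Of 15 synaptic adhesion genes Nrxn3 alone was called, with a log2 fold change of -0.16 (SE 0.12; with the block, adjusted p = 0.0412 in edgeR) that ranged from -0.32 to -0.020 without the block with a library left out.

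The 13 genes of the mitochondrial genome summed to 9496 and 11558 CPM in wild-type and 8638 and 7528 in TRα1+m, and 9 of 13 did not overlap, all of them lower, against 6.35% of all genes. With the block 3 of 13 passed, all lower, against 0.593% lower of all genes and 2.67% of those with at least 100 CPM: mt-Nd5, mt-Nd2 and mt-Cytb. mt-Nd5 was at 94.5 and 104 in wild-type and 77.3 and 77.9 in TRα1+m (log2 fold change -0.41, SE 0.12, unadjusted p = 0.0187; with the block, adjusted p = 0.00720 in edgeR). Without the block, log2 fold changes ranged from -0.53 to -0.18 for mt-Nd2 and from -0.55 to -0.21 for mt-Cytb with a library left out. The nuclear gene Cox5a, a subunit of the same respiratory chain, was at 137 in both wild-type libraries and at 106 and 99.5 in TRα1+m (log2 fold change -0.47, SE 0.12, unadjusted p = 0.00985; with the block, adjusted p = 0.000379 in edgeR). Cox5a was at 235 in oligodendrocytes and 224 in astrocytes, and was lower in TRα1+m within each repeat in both. mt-Co3 was at 2694 and 3156 in wild-type and 2455 and 1875 in TRα1+m, with the larger part of the difference in repeat 2. It was lower in TRα1+m within each repeat in glutamatergic neurons too, at 2430, 2895, 2116 and 1688 in the same order, and in oligodendrocytes, at 6527, 6695, 5513 and 4341, but in astrocytes in repeat 2 alone, at 5715, 5469, 5735 and 3710. Mitochondrial transcripts in nuclei come from outside the nucleus, and oligodendrocytes held 21277 CPM of this list, and the part of cytoplasmic RNA in these values was not tested.

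Of the 7 genes that the study names in neurons, Grm8 and Lrrtm4, a glutamate receptor and a synaptic organiser, had log2 fold changes of -0.02 (SE 0.09) and -0.16 (SE 0.08) in GABA neurons, and neither passed with or without the block. mt-Atp6 was at 1193 and 2103 CPM in wild-type and 1051 and 1382 in TRα1+m (log2 fold change -0.49, SE 0.28). The study chose these genes on the same libraries, so they are not independent evidence.

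The other genes named are those of smallest p with at least 10 CPM in either direction, and some genes of lower level had a smaller p. Cadm2, a synaptic adhesion molecule, was at 1904 and 1870 CPM in wild-type and 1577 and 1546 in TRα1+m (log2 fold change -0.33, SE 0.08, unadjusted p = 0.00932; with the block, adjusted p = 2.48e-05 in edgeR). Dtna, of the dystrophin complex, was at 284 and 260 in wild-type and 213 and 197 in TRα1+m, and Chn1, a Rac regulator, at 167 and 165 in wild-type and 125 and 136 in TRα1+m. Cadm2 and Dtna were higher in astrocytes than in GABA neurons. In astrocytes Cadm2 was at 3878 and 3877 in wild-type and 3640 and 3554 in TRα1+m. Dtna was there at 1198 and 1053 in wild-type and 1245 and 1094 in TRα1+m. In glutamatergic neurons Cadm2 was at 2342, 2206, 1934 and 1836 in the same order, Dtna at 300, 276, 217 and 206 and Chn1 at 159, 157, 119 and 130. Each of these genes was lower in TRα1+m glutamatergic neurons within each repeat. Bcas1, a myelin gene, and the collagen Col9a2 were at no more than 17.9 in any GABA library, and Neat1, a long non-coding RNA singled out after its values were seen because it had the smallest p of all genes (unadjusted p = 0.00300), was at 6.999 and 5.95 in wild-type and 2.61 and 1.92 in TRα1+m. In oligodendrocytes Neat1 was at 602 and 688 in wild-type and 150 and 251 in TRα1+m. Rgs10 and Frmpd1 were also lower, with log2 fold changes of -0.58 and -0.62. Bcas1 was at 419 in oligodendrocytes and Frmpd1 at 151 in astrocytes, above their levels in GABA neurons. Rgs10 was at 40.5 in oligodendrocytes and 32.5 in astrocytes against 26.0 in GABA neurons, and was lower in TRα1+m within each repeat in both. The part of glial RNA in these values was not tested. With the block Cadm2, Dtna, Chn1, Bcas1, Col9a2, Neat1, Rgs10 and Frmpd1 all passed, with adjusted p from 2.48e-05 for Cadm2 and Dtna to 0.0168 for Frmpd1 in edgeR. The 8 other genes with higher values in TRα1+m were T2, 4933424G06Rik, Limd1, Dnah7c, Hes5, Nox4, Ror1 and Gm12216, at a mean of 25.2 CPM or less and with log2 fold changes between 0.39 and 0.57. The unadjusted p was 0.0381 for T2 and 0.0458 for 4933424G06Rik and lay between 0.05002 and 0.0694 for the remaining 6. Hes5 is an effector of Notch signalling. Of these 8 genes 4933424G06Rik alone passed with the block.

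**Figure D4:**
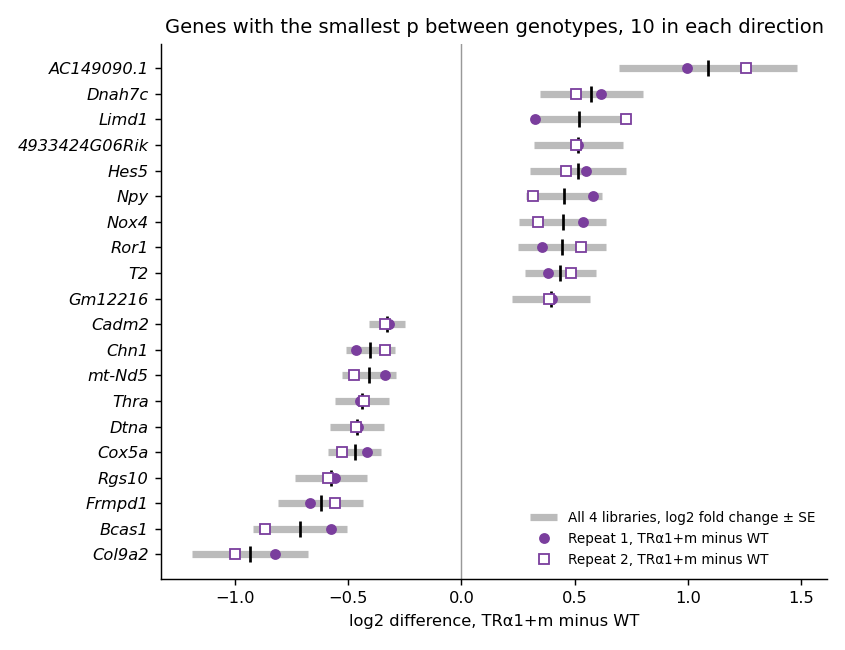
Log2 differences between TRα1+m and wild-type GABA neurons for the 10 higher and 10 lower genes of smallest p with at least 10 CPM and the same sign in both repeats, with the estimate over 4 libraries (black line, grey bar ± SE) and the difference within each repeat. Repeats 1 and 2 gave -0.45 and -0.43 for Thra and 0.99 and 1.26 for AC149090.1, and no gene shown passed an adjusted p of 0.05 without the block.

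To ask whether the genotype acted differently in GABA and glutamatergic neurons, the interaction of genotype and cell type was tested with the library as a term. In edgeR 1 of 17476 genes passed (0.00572%), and with the repeat by cell type block 48 (0.275%). The gene called was Reln (chromosome 5, 21884454 to 22344702, minus strand), which encodes the secreted protein reelin. It was at 77.7 and 63.5 CPM in wild-type and 81.1 and 71.2 in TRα1+m GABA neurons, which overlapped, and at 54.4 and 40.0 in wild-type and 78.0 and 74.0 in TRα1+m glutamatergic neurons, which did not. The difference of the log2 fold changes was -0.58 (SE 0.07, adjusted p = 0.00113 in edgeR). It lost the call without the wild-type library of repeat 1 (-0.66, adjusted p = 0.174) or of repeat 2 (-0.50, adjusted p = 1.00), and with the 8 sums taken as independent (adjusted p = 1.00).

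The next 9 genes of that ranking did not pass with the filter on low counts and all 4 libraries unless the block was added, and without the filter 8 of them passed without the block. Esr1 averaged 56.8 and 44.7 CPM in wild-type and TRα1+m GABA neurons and 27.7 and 28.9 in wild-type and TRα1+m glutamatergic neurons (difference of log2 fold changes -0.40, SE 0.09, adjusted p = 0.527; with the block, adjusted p = 0.00244 in edgeR). The potassium channel gene Kcnk13 and the receptor Lgr5 gave -0.49 and -0.56 and the neurotrophic factor receptor Ret gave 0.77. Kcnmb2 and Etl4 gave 0.38 and 0.28, Gm15155 gave 0.37, Rxfp2 gave 1.38 and Greb1l gave -0.24. For Thra the difference was -0.03 (SE 0.07), for AC149090.1 0.11 (SE 0.07) and for Meis2 0.15 (SE 0.29).

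The experimental repeat separated the libraries of GABA neurons more than the genotype did. With genotype as a term, 5213 of 17552 genes (29.7%) differed between repeats in edgeR at an adjusted p of 0.05, 2713 higher (15.5%) and 2500 lower (14.2%) in repeat 2. Sst was at 105 and 113 CPM in the wild-type and TRα1+m libraries of repeat 1 and at 391 and 390 in those of repeat 2 (log2 difference 1.80, SE 0.07). Gal differed by 1.82 (SE 0.07) and Slc32a1 by 1.63 (SE 0.08). The proton pump subunit Atp6v0c and the neuronal vesicle protein Nsg1 were higher by 1.68 and 1.82, and the membrane protein Itm2b by 1.36. In oligodendrocytes Sst was at 212 and 220 in repeat 1 and 61.9 and 55.0 in repeat 2, opposite to its direction in GABA neurons. Oxt was lower in repeat 2, with a log2 difference of -3.24 (SE 0.08), as were Celf3, Cnot3, Gm32509 and P2ry14, with differences from -1.63 to -1.08.

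Over all genes 15.5% were higher and 14.2% lower in repeat 2. Of 26 neuropeptide genes 12 were higher and 5 lower in repeat 2, of 33 hormone and peptide receptors 15 higher and 5 lower, and of 22 GABA lineage factors none higher and 10 lower. Meis2 and Zfhx3, for example, differed by -0.85 and -0.42. Of 15 synaptic adhesion genes 3 were higher and 9 lower. Of the markers Gad1 was higher by 0.52 (SE 0.08), while Gad2 differed by -0.02 (SE 0.07). The oligodendrocyte, astrocyte and microglia markers that passed were lower in repeat 2, with 4 of 6, 3 of 6 and 2 of 5 called.

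**Figure D5:**
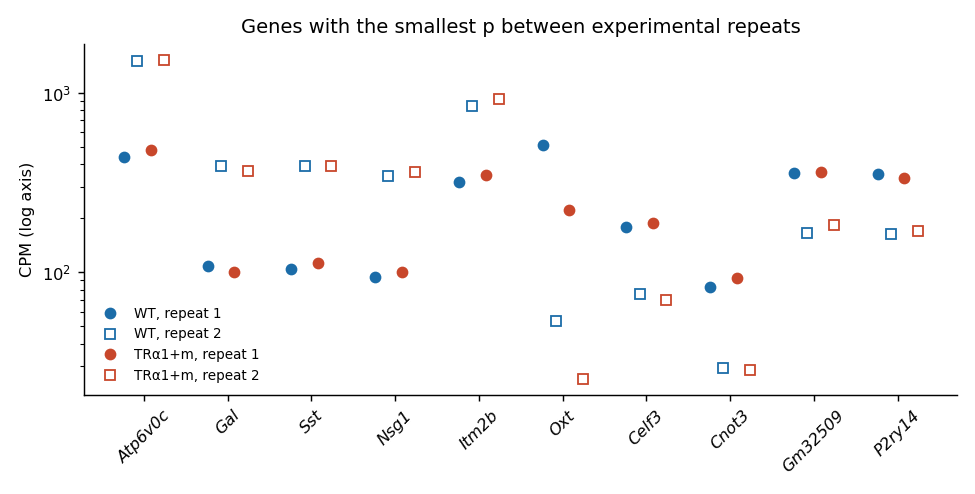
Levels in CPM (log axis) of the 5 genes higher and 5 genes lower in repeat 2 with the smallest p between repeats in GABA neurons, by library. Filled symbols (repeat 1) and open symbols (repeat 2) are apart for every gene, while wild-type (blue) and TRα1+m (red) of a repeat lie close together except for Oxt.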

How the data were processed

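The authors aligned reads with Cell Ranger 5.0.1 to mm10 (build GRCm38), introns included, and deposited raw UMI counts per gene and nucleus, whole numbers without normalisation. They had removed nuclei by counts, features, mitochondrial share and doublet score, so no doublet caller was run, and had corrected neurons for the experimental repeat with harmony before sub-clustering. Their annotation gave the sub-clusters used here. It was not rebuilt.

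UMIs of GABA nuclei were summed per library and tested in edgeR 4.0.16 (R 4.3.3): filterByExpr, TMM factors (0.970 to 1.04), robust quasi-likelihood F-test, two-sided, Benjamini-Hochberg over all genes tested. The rule for calls was an adjusted p of 0.05. CPM and the counts of non-overlapping genes use library totals without these factors. DESeq2 1.42.0 was an alternative. On simulated data without a difference between repeats the edgeR scripts recovered the large changes put in. Recovery of smaller changes with the difference between repeats present was not tested. Differences between repeats correlated between the genotypes across genes (Pearson r 0.668 over 17552 genes, which are not independent), and the study's methods place a library of each genotype in each repeat, so the repeat was also fitted as a block. Libraries are pools of 3 mice, and p-values measure the spread between pools.

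Thinning drew UMIs without replacement. The fold of GABA over glutamatergic neurons used means over 4 libraries. Coordinates are GENCODE M21 on GRCm38, matched by gene identifier. In the report, genes named were the transmitter markers, the 10 higher and 10 lower genes of smallest p, list members of highest level, widest spread or smallest p, the study's 7 genes, and the leading genes of the interaction and repeat tests and of the ratio over glutamatergic neurons; other genes called with the block were chosen after their values were seen. The members, lists and rules were chosen with earlier results of these data known. Sums and shares were computed with scipy 1.17.1, pandas 2.3.3 and numpy 2.4.6 under Python 3.11.15. Some genes that these rules select are not reported here.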

Additional observations from a re-analysis of the deposited data

Results flagged for a closer look

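The genotype effect on Reln differed between GABA and glutamatergic neurons by the test of the interaction itself, by -0.58 on the log2 scale (SE 0.07, adjusted p = 0.00113 in edgeR). Wild-type and TRα1+m means were 47.2 and 76.0 CPM in glutamatergic and 70.6 and 76.2 CPM in GABA neurons. With 2 libraries per genotype no group was large enough for a search for single outlying libraries.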

How the results depend on the processing

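Without a replicate block the number of genes called between genotypes was 0 under every alternative run in edgeR and DESeq2 (RLE factors, the bias-adjusted fit, no filter, a fold limit, strict nuclei with GABA markers and no glutamate transporter, equal numbers of nuclei, and each library left out), while the rank sum test over nuclei called 2. With the replicate block, which pairs the libraries by repeat, edgeR called 120 and DESeq2 2. Versions of the replicate block chosen after seeing the data gave 104 with RLE factors, 187 with the bias-adjusted fit, 17 with equal numbers of nuclei and 2 in strict nuclei, the last 2 with fewer nuclei summed, and all the 104, 17 and 2 genes were among the 120. The 120 genes kept their direction under every alternative with 4 libraries, and 115 to 117 did with a library left out.

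The interaction with cell type called 1 gene, 18 without the filter, 48 with the replicate block and 0 without the library term, and between 0 and 7 with a library left out. The replicate block left the share of GABA neurons at a log2 fold change of 0.13, not called. Between repeats DESeq2 called 1610 genes against 5213. Non-overlapping subsets numbered 8 at 1 UMI against 5. The causes were not tested. Leaving libraries out of the repeat contrast could not be fitted, since no residual degrees of freedom remained.

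Of 66 genes followed through the alternatives, which include list members of smallest p that the report does not name, 10 changed sign in some alternative: with a library left out, log2 fold changes ranged from -0.38 to 0.18 for Gad1, -1.11 to 0.95 for Slc32a1, -3.57 to 1.19 for Oxt, -1.42 to 0.50 for Avp, -0.9986 to 0.095 for Nts, -0.22 to 0.51 for the oligodendrocyte precursor marker Cspg4, -1.35 to 1.01 for Gal, -1.16 to 1.17 for Sst, -0.61 to 0.093 for Rorb and -0.071 to 0.023 for Grm8, which was at 0.033 in strict nuclei and 0.031 there with the replicate block. Genes near 1 CPM, such as Hr, rest on few UMIs in each library.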
